A study of Mus musculus with 18 samples.

Results

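Of the 43094 H3K27me3 peaks that the authors called in untreated E14 mouse embryonic stem cells, 17149 lay inside H3K36me2 peaks, and these are described here as embedded peaks. They were chosen from the deposited peak lists: H3K27me3 peaks on the 19 autosomes, 2 kb to under 50 kb long, with 90% or more of their bases covered by H3K36me2 peaks. Of 39750 H3K27me3 peaks in that length range, 43.1% met the rule, 36.8% (14622 peaks) had no base in an H3K36me2 peak, and 7979 were covered in part. The first of these comparison classes is called H3K36me2-free below. Because the untreated H3K27me3 and H3K36me2 libraries chose the embedded peaks, the levels of these marks in untreated cells are a description and carry no test.

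The study profiled E14 cells, a pluripotent line kept undifferentiated in 2i/LIF medium, by chromatin immunoprecipitation and sequencing (ChIP-seq) in 18 libraries forming 9 groups of 2. Untreated cells, without a spike-in, gave 10 libraries, 2 for each of the 3 H3K27 methylation states, H3K36me3 and H3K36me2. A second set of 8 libraries was quantitative and measured H3K27me3 and H3K36me2 after 7 days with EPZ-6438 at 10 µM, which blocks EZH2, the main enzyme that methylates H3K27, or with an equal volume of DMSO, its solvent. Drosophila S2 chromatin at 0.05% of the total was mixed into the sonicated chromatin of these 8. All groups share the line and the medium, and nothing states whether the replicates came from separate cultures, so p-values measure only the spread between these libraries, which may be technical.

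H3K27me3 is placed by PRC2, whose catalytic subunit is EZH2 or EZH1, and marks silent developmental genes and their surroundings. H3K36me2 is placed mainly by the NSD enzymes over broad intergenic and genic sequence, and H3K36me3 by SETD2 over the bodies of transcribed genes. Methylation of H3K36 hinders PRC2 on the same histone tail, so both kinds of domain are usually described as excluding each other, while H3K27me1 and H3K27me2 can lie outside H3K27me3 domains. A ChIP peak is an average over many cells and both alleles, so overlapping peaks do not show that both marks sit on the same nucleosome.

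Promoters are shown for 5 genes that start inside embedded peaks, because the embedded peaks hold both CpG-dense and CpG-poor starts and these genes recur below. Each line gives 250 bases before the start, 5′ to 3′, from RefSeq on GRCm38.p6 (mm10), with every CG in capitals.
Wnt1 (chr15:98789607-98789856, plus strand): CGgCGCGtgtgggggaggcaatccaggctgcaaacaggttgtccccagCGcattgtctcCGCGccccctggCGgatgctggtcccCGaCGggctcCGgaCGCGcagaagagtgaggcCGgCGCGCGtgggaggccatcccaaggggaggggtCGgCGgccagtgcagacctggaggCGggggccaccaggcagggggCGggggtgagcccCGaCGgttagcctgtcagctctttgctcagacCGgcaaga
Dll4 (chr2:119325534-119325783, plus strand): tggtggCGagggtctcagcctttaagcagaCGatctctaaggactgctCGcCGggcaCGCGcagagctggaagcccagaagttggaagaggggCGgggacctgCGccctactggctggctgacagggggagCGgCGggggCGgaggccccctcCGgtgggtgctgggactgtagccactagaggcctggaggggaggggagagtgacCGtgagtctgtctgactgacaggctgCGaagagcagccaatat
Fgfr4 (chr13:55152568-55152817, plus strand): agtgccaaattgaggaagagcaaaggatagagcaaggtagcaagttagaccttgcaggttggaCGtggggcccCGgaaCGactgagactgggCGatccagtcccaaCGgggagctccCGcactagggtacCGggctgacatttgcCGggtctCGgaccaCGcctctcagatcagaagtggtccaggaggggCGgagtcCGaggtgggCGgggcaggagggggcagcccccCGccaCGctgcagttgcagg
Tex101 (chr7:24672051-24672300, minus strand): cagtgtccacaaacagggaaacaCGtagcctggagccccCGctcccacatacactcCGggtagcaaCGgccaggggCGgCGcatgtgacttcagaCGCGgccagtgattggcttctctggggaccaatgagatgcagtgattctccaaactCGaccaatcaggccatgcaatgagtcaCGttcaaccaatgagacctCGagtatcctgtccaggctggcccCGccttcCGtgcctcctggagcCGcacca
Dnmt1 (chr9:20959889-20960138, minus strand): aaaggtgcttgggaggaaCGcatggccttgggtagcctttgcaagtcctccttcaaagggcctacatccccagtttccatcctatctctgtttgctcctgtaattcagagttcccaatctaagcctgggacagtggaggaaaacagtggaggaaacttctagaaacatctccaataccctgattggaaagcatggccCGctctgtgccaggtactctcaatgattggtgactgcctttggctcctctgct

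These 250 bases held 23 CG pairs at Wnt1, 14 at Dll4, 15 at Fgfr4, 14 at Tex101 and 2 at the Dnmt1 start. Dnmt1 has other listed starts outside H3K27me3 peaks, one of them with 26 CG pairs, so the embedded start is an alternative one. CG was searched as these letters, which read the same on both strands. It occurred at least once in 92.4% of all 31396 promoters of this length in the RefSeq table and in 96.7% of the 4710 promoters inside embedded peaks, with a median of 6 and of 5 pairs. Over the full 300 bases (250 before to 50 after the start), the ratio of observed to expected CG was 0.6 or more in 25.1% of promoters inside embedded peaks, in 24.9% inside H3K36me2-free peaks and in 36.4% of all promoters. The table is not complete and holds no chromosome 18 entry.

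Depth differed between groups. The 10 untreated libraries held 22.9 to 67.5 M window reads (M, 1000000). Of the quantitative libraries, 6 held 21.6 to 112 M, while the inhibitor libraries for H3K27me3 held only 0.992 and 1.78 M. All 10 stem cell genes examined, among them Pou5f1, Nanog and Tfcp2l1, carried H3K36me3 above the library mean. They ran from 1.11 times at Dppa5a to 7.65 at Tfcp2l1, with a median of 6.09 times. Marker sets of neural, mesodermal, endodermal, trophoblast and fibroblast cells had medians of 1.07 to 2.14 times. In the same order, 4 of 4, 4 of 4, 2 of 4, 3 of 3 and 2 of 3 of these genes also exceeded the library mean. The highest was Tubb3 at 4.73 times, so a level above the mean does not by itself set the stem cell genes apart. No input library was used here, so a level is a share of reads and not an enrichment over input.

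Embedded peaks covered 171.2 Mb, or 31.1% of all sequence in H3K27me3 peaks. Their length ranged from 2 to 49.5 kb with a median of 7 kb, against 6 kb for H3K36me2-free peaks. The authors' score, whose scale is not stated, had a median of 113.5 in embedded and 74.6 in H3K36me2-free peaks. Cover was complete for 15936 peaks (92.9%), so few lay near the 90% limit. The 890 peaks with 90% to under 95% cover held H3K27me3 at 3.17 and H3K36me2 at 2.13 times the library mean, and the 849 with 85% to under 90%, just outside, held 2.96 and 1.95 times. A further 443 peaks under 2 kb and 517 of 50 kb or more met the cover rule and were left out by length.

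The embedded peaks sat in 9701 of the 40833 H3K36me2 peaks (23.8%). Most of these hosts held few: 6260 held 1 embedded peak, 2564 held 2 or 3 and 877 held 4 or more. The median host was 28 kb long, against 9.5 kb for all H3K36me2 peaks, and an embedded peak filled a median of 17.0% of its host. The median distance to the host's edge was 5.5 kb, and 4300 peaks (25.1%) reached that edge.

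Embedded peaks overlapped genes and gene starts more often than H3K36me2-free peaks did, as a description of 1 peak list without a test. Annotated genes covered 59.9% of embedded sequence, 50.4% of H3K36me2-free sequence and 48.3% of the autosomes. No gene overlapped 28.6% of embedded peaks, 42.5% of H3K36me2-free peaks and 30.5% of the partly covered ones. The share lying wholly within genes was similar in embedded and H3K36me2-free peaks, at 42.9% and 41.2%. Gene starts fell in 20.2% of embedded, 9.9% of H3K36me2-free and 24.2% of partly covered peaks outside chromosome 18. Embedded and H3K36me2-free sequence held them at 24.4 and 14.3 starts per Mb against 10.9 over the autosomes. The share of a chromosome inside embedded peaks ran from 4.44% on chromosome 14 to 10.7% on chromosome 11, while H3K36me2-free peaks took 4.54% and 4.69% of the same chromosomes.

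Lists of genes with roles in development and chromatin give the named examples. Of 25748 genes in the promoter table, 3944 (15.3%) started in an embedded peak. Among Polycomb-bound developmental regulators this held for 6 of 27 (Gata2, Sox1, Eomes, Neurog1, Wnt1 and Bmp4), and among germline genes for 4 of 12 (Dazl, Sycp3, Tex101 and Hormad1). For imprinted genes it was 3 of 21 (Airn, Zim1 and Nnat), for signalling receptors and ligands 3 of 28 (Fgfr4, Tgfbr2 and Dll4), and for DNA methylation genes 2 of 9 (Dnmt1 and Dnmt3b). The naive pluripotency list gave 1 of 10 (Esrrb), PRC2 genes 1 of 10 (Phf19) and PRC1 genes 2 of 14 (Phc2 and Kdm2b). Genes of the formative and primed state gave 2 of 9 (Dnmt3b and Sall2), and H3K36 methyltransferases and demethylases 1 of 5 (Kdm2b). A gene counts here when any of its listed starts lies in an embedded peak. Other H3K27me3 peaks held more of the 27 developmental regulators. Of these, 9 started in partly covered peaks and 10 in peaks outside the length or chromosome rule, against 8.87% and 8.18% of all genes. With lists this short, shares near 15.3% describe the genes and set no list apart.

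In untreated cells the embedded peaks carried a mixed pattern. H3K27me3 stood at 2.78 ± 0.14 times the library mean (SD, n = 2) and H3K36me2 at 2.56 ± 0.15, the 2 marks the rule used. H3K36me3, which the rule did not use, stood at 1.72 ± 0.06 times in embedded peaks and 0.471 ± 0.009 in H3K36me2-free peaks. That is a 3.64-fold ratio, 1.87 ± 0.02 on the log2 scale, far larger than its SD, and H3K36me3 was above the library mean in 78.8% of embedded peaks and 2.15% of H3K36me2-free peaks. H3K36me2 peaks outside H3K27me3 peaks, called H3K36me2-only sequence, held more H3K36me3, at 2.16 ± 0.04 times.

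The lower methylation states of H3K27 differed as well. H3K27me2 stood at 1.76 ± 0.06 times the library mean in embedded peaks, 0.986 ± 0.10 in H3K36me2-free peaks and 1.65 ± 0.13 in H3K36me2-only sequence. The log2 ratio of embedded to H3K36me2-free peaks was 0.84 ± 0.20 (SD, n = 2). H3K27me1 stood at 1.05 ± 0.02, 0.865 ± 0.07 and 1.65 ± 0.10 times, and the ratio of the first pair, 0.28 ± 0.10, was also above its SD. H3K27me1 was thus nearer to the H3K36me2-free than to the H3K36me2-only level, and H3K27me2 the reverse. With 2 libraries a mark these ratios were read against their SD, without a test.

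**Figure D1:**
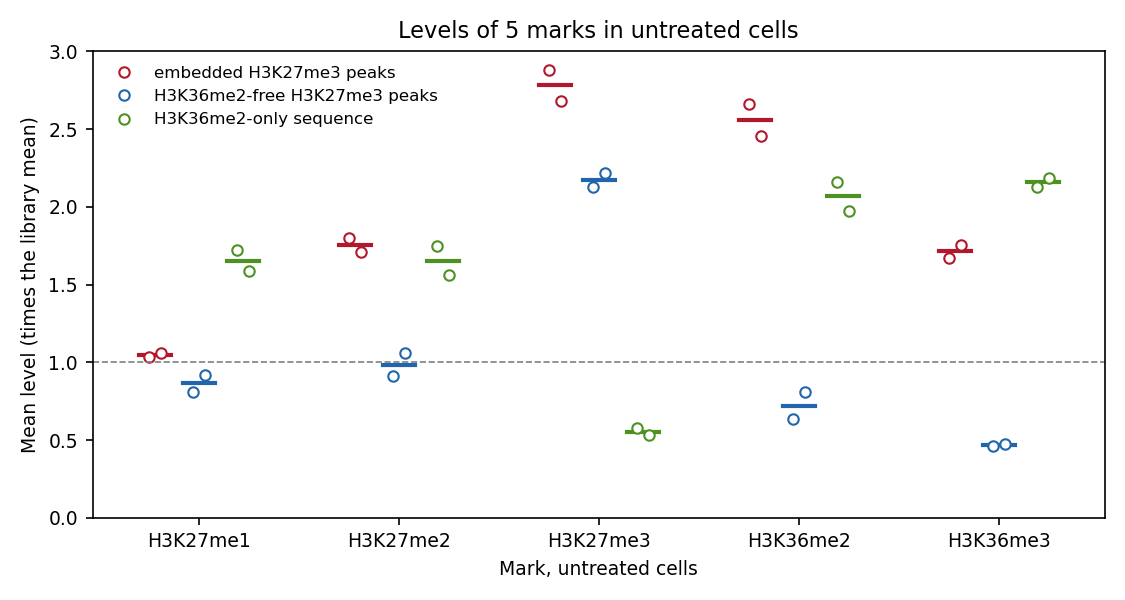
Mean level of 5 marks in untreated cells (y axis, times the library's autosomal mean) by mark (x axis), with 1 point per library and a bar at the mean of 2, for embedded peaks, H3K36me2-free peaks and H3K36me2-only sequence. The means of embedded peaks lie at 1.72 times or above for every mark but H3K27me1, which is at 1.05 times.

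Peak lists gave the same order for embedded and H3K36me2-free peaks, the classes compared in this way. H3K27me2 peaks covered 81.9% of embedded sequence and 12.4% of H3K36me2-free sequence, and 14818 embedded peaks (86.4%) had at least 50% of their bases in one. H3K27me1 peaks covered 17.6% and 4.23%, with 3102 embedded peaks (18.1%) at or above that share. Peaks of neither mark overlapped 1167 embedded peaks (6.81%).

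Across the 17149 embedded peaks, which share the libraries and their depth, untreated H3K27me1 and H3K27me2 had a Spearman rho of 0.750. With H3K36me2 and H3K27me3 taken from the DMSO libraries, which did not choose the peaks, H3K36me2 had a rho of 0.737 with H3K27me2 and 0.644 with H3K36me3. H3K27me3 had a rho of 0.390 with H3K36me2, 0.301 with H3K36me3, 0.106 with H3K27me2 and -0.0058 with H3K27me1. Extremes of H3K36me3 show the span. The 4 lowest of the eligible peaks, at 0.308 to 0.386 times the library mean, included one in Ccl28, a chemokine gene, and one in Snap25, a synaptic SNARE gene. The highest outside repeat-like peaks lay at Gm51701, with 25.8 ± 1.1 times, followed by an intergenic peak at chr12:20227501-20234500, Dnah8 and Lrrc8a. Repeat-like peaks, those over 5 times the library mean for all 5 untreated marks, numbered 6 and were set aside before naming. Peaks that high in fewer than 5 marks stayed in. Without an input library, the part of read mapping in the highest levels was not tested.

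Profiles across the peak edges compared the embedded peaks with flanks of up to 5 kb in the same H3K36me2 peaks, a comparison added after earlier values were seen. H3K27me3 was 3.78 ± 0.01 times its flank level in untreated cells (SD, n = 2). H3K36me2 was 1.13 ± 0.008 times its flank. Both values describe marks that chose the peaks, which had to lie in H3K36me2 peaks. In the DMSO libraries, which the rule did not use, H3K36me2 was 1.17 ± 0.003 times its flank. H3K36me3 was 0.980 ± 0.01 and H3K27me2 0.954 ± 0.05 times the flank, while H3K27me1 was 0.696 ± 0.03 times. H3K27me1 went from 1.70 times the library mean 9.5 kb outside the edge to 1.01 times 4.5 kb inside it. H3K36me3 was not level over this distance either. It went from 2.43 times 9.5 kb outside to 1.52 times 0.5 kb outside and 1.69 times 4.5 kb inside. Fewer windows entered 9.5 kb outside (7867) than 0.5 kb outside (27888), so the outer values describe fewer surroundings.

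**Figure D2:**
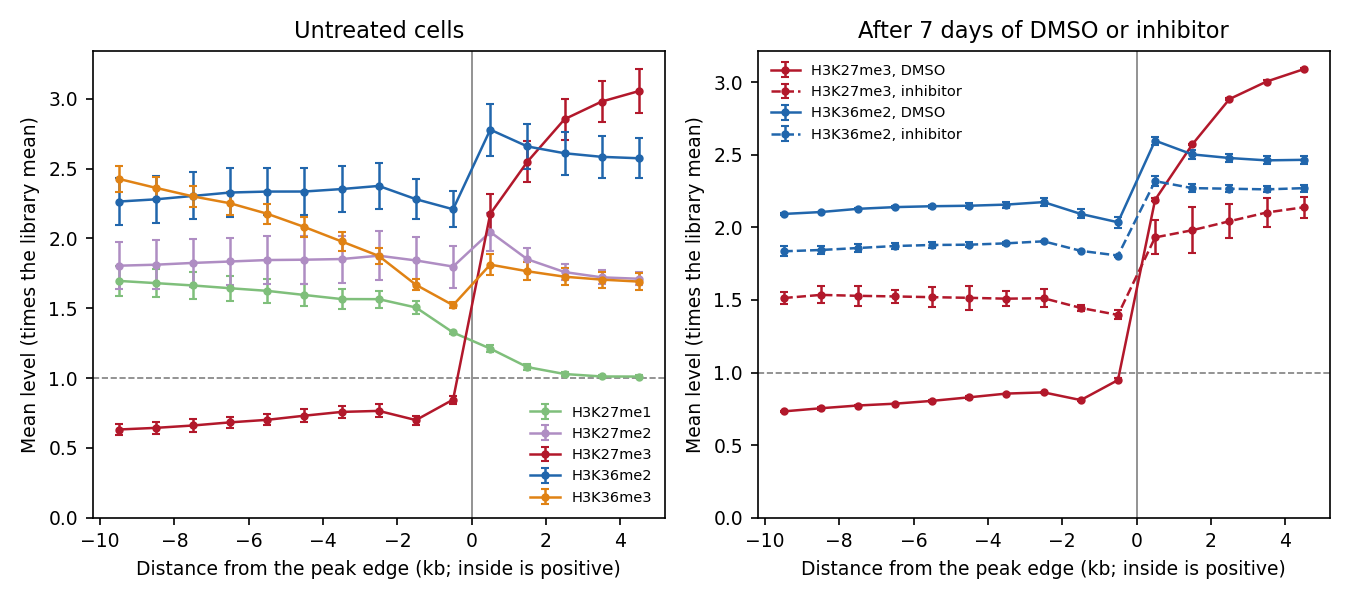
Mean level (y axis, times the library mean; bars are SD over 2 libraries) by distance from the edge of embedded peaks (x axis, kb, inside positive), in untreated cells on the left and after DMSO or inhibitor on the right, within the same H3K36me2 peaks. H3K27me3 steps up at the edge after DMSO and less after the inhibitor, while H3K36me2 stays above 1.8 times on both sides.

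Inhibition of EZH2 lowered H3K27me3 in the embedded peaks. On the spike-in scale their mean was 144 and 106 scaled reads per window after DMSO and 0.212 and 0.148 after the inhibitor, with no overlap. The change was -9.45 on the log2 scale, a 698-fold difference, with single pairs of libraries from -9.93 to -8.97 (exact permutation test, two-sided, p = 0.333, the smallest that 2 against 2 libraries allow). A large fall was not particular to H3K27me3 peaks. Autosomal windows as a whole went from 51.3 and 37.6 to 0.0959 and 0.0702. Sequence outside both H3K27me3 and H3K36me2 peaks went from 17.8 and 13.3 to 0.0427 and 0.0322. With limma on log2(scaled reads + 1), 15921 embedded peaks had reads in all 4 libraries, and all of them fell at an adjusted p under 0.05. The background was the same: 100% of 37653 H3K27me3 peaks tested were called, so this count says nothing particular about embedded peaks. Their median change on that scale, which understates falls of low values, was -6.41, and over all tested peaks -6.35. The remaining embedded peaks had 0 reads in at least 1 inhibitor library and were not tested.

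The reads that remained were still denser in the embedded peaks than on average. Relative to each library's own mean, H3K27me3 stood at 2.81 and 2.82 times after DMSO and at 2.21 and 2.10 times after the inhibitor. The relative change was -0.38 in log2 (pairs -0.42 to -0.34, exact p = 0.333). Their share of autosomal reads went from 20.5% to 15.8%, on 7.30% of the windows. H3K36me2-free peaks were at 1.99 and then 1.35 times. The ratio of embedded to H3K36me2-free peaks was 1.40 and 1.42 after DMSO and 1.68 and 1.52 after the inhibitor. This difference was 0.18 in log2 (pairs 0.11 to 0.26, exact p = 0.333), and 0.48 when medians over peaks replaced means. H3K36me2-only sequence was at 0.644 times the library mean after DMSO and 1.36 times after the inhibitor.

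Embedded peaks stood above their own flanks in both arms. The log2 ratio of H3K27me3 to the flank was 1.76 after DMSO and 0.58 after the inhibitor, a difference of -1.17 (pairs -1.18 to -1.16, exact p = 0.333). The flanks were at 0.871 times the library mean and then at 1.46 times. The inhibitor libraries held a median of 5 and 9 reads per embedded peak, with 1002 and 279 peaks at 0 reads, and their replicate rho over peaks was 0.307 against 0.861 after DMSO. The part of this low depth in the relative values was not tested.

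**Figure D3:**
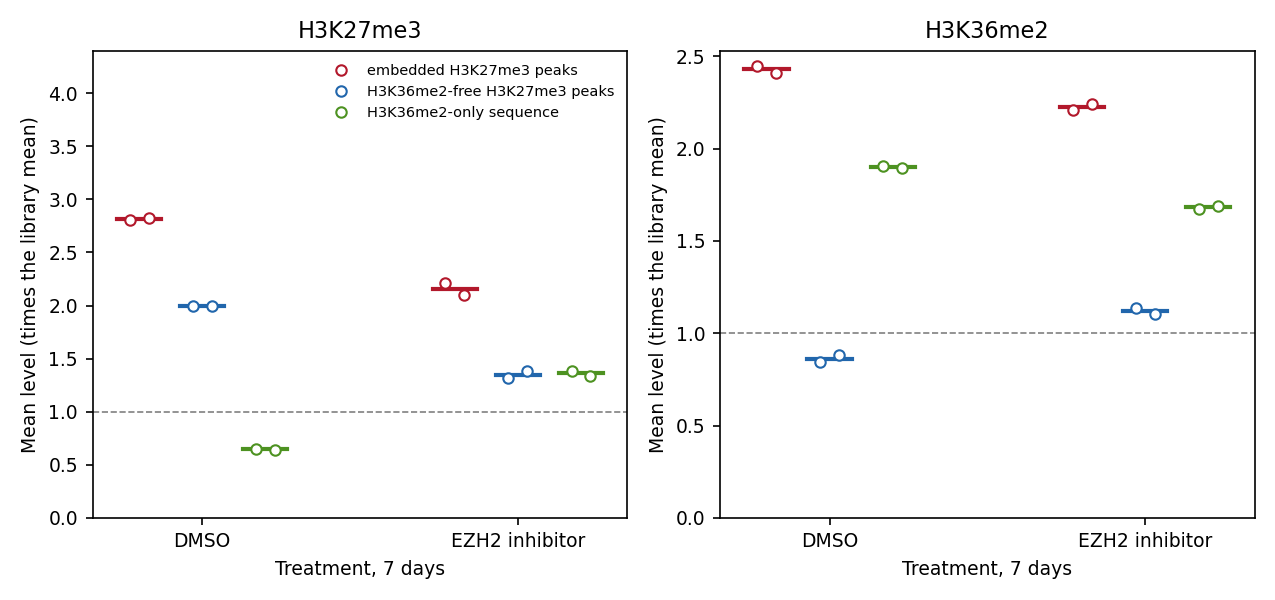
Mean level (y axis, times the library's autosomal mean) of H3K27me3 on the left and H3K36me2 on the right after 7 days of DMSO or inhibitor (x axis), with 1 point per library and a bar at the mean of 2. In embedded peaks H3K27me3 goes from 2.81 to 2.16 times and H3K36me2 from 2.43 to 2.23 times. H3K36me2 goes from 0.862 to 1.12 times in H3K36me2-free peaks and from 1.90 to 1.68 times in H3K36me2-only sequence.

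Subsets of the embedded peaks differed in relative H3K27me3 after the inhibitor. The 3102 peaks with at least 50% of their bases in H3K27me1 peaks had a mean change of 0.14 in log2 relative to the library mean, and the other 14047 of -0.48, a difference of 0.62 (pairs 0.58 to 0.66). The 6 repeat-like peaks weighed on this: without them the first value was -0.08 and the difference 0.40 (pairs 0.34 to 0.46), and with medians over peaks the difference was 0.38. The 5717 embedded peaks highest in untreated H3K27me1 exceeded the 5716 lowest by 0.50, or 0.38 without the repeat-like peaks. Ranked by H3K27me2 the values were 0.46 and 0.35, and ranked by H3K36me3 0.31 and 0.22. Ranked by untreated H3K36me2, which chose the peaks, they were 0.20 and 0.098, as a description. Over the embedded peaks, H3K27me2 had a rho of 0.750 with H3K27me1 and 0.622 with H3K36me3. The parts of these marks cannot be told apart here. The difference of peaks of 20 kb or more from those under 5 kb was -0.23, and that of peaks with a gene start from those without was -0.16, or -0.10 without repeat-like peaks. Over the 24 comparisons of subsets computed for both marks, the smallest exact p was 0.333, or 0.533 after Benjamini-Hochberg adjustment, so none could pass a threshold.

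Promoter CpG content was set against the same change, a split chosen after values were seen. The 972 embedded peaks whose start had a CG ratio of 0.6 or more held H3K27me3 at 4.38 ± 0.13 times the library mean after DMSO and 3.28 ± 0.14 after the inhibitor. The 2378 with starts under that ratio held 3.22 ± 0.03 and 2.24 ± 0.12 times. Their relative changes, -0.42 and -0.53, differed by 0.11 with pairs from -0.01 to 0.23 (exact p = 0.667), and by -0.13 with medians over peaks, so no direction held.

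Single embedded peaks spanned a wide range around these means. The peak over Wnt1, a secreted signalling ligand of the developing nervous system (chr15:98785501-98810500, 25 kb, with Ddn and B130046B21Rik), held 2244 and 3140 H3K27me3 reads in the DMSO libraries and 147 and 372 in those of the inhibitor. Relative to the library mean it stood at 10.0 and 10.8 times, then at 14.3 and 20.2 times, so the arms did not overlap and the inhibitor arm was higher. The peak at Dll4, a Notch ligand, with Chac1 (chr2:119306001-119354000) was similar, with 7.54 and 8.58 times and then 15.4 and 25.1 times. On the spike-in scale both fell, by 328-fold and 219-fold.

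At Gata2, a transcription factor of blood formation (chr6:88176001-88210000), the arms overlapped, with 7.84 and 8.05 times after DMSO and 7.05 and 8.63 after the inhibitor. Neurog1, a neuronal determination factor (chr13:56244501-56277000), overlapped too, at 7.70 and 8.09 against 6.27 and 12.3 times. Esrrb, a pluripotency factor whose embedded peak holds 1 of its listed starts (chr12:86407501-86432000), had 5.13 and 6.13 against 4.14 and 6.21 times. Fgfr4, a fibroblast growth factor receptor (chr13:55141501-55162500), was lower after the inhibitor, at 1.26 and 1.41 times against 3.23 and 3.81. The germline gene Tex101 (chr7:24664501-24673500) was lower as well, at 2.27 and 2.68 against 6.23 and 6.50 times. The H3K27me3 inhibitor libraries averaged only 0.396 and 0.709 reads per autosomal window, so the lower levels at Fgfr4 and Tex101 rest on few reads.

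Genes of chromatin regulators gave further examples, chosen for high H3K27me3 after DMSO like the other list genes. Choosing by the DMSO level favours falls after the inhibitor, for all list genes named here. Phf19, a PRC2 accessory subunit (chr2:34907501-34919500), had 5.47 and 4.92 times after DMSO and 2.72 and 4.45 after the inhibitor. The embedded peak at Kdm2b, which brings a variant PRC1 to CpG islands, holds 1 of 4 listed starts, and the other 3 lie outside H3K27me3 peaks. It went from 5.14 ± 0.71 to 2.13 ± 0.64 times, and the peak at Dnmt3b, a de novo DNA methyltransferase, went from 2.46 ± 0.13 to 1.18 ± 0.49. These pairs of values rest on 4 to 13 reads per inhibitor library. At the imprinted Airn, a long RNA antisense to Igf2r, and Nnat, which lies in Blcap, the arms overlapped. ChIP reads come from double-stranded DNA, so a mark there cannot be assigned to either of the overlapping genes.

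Counts of peaks whose arms did not overlap on the relative scale give the frame for these cases. Of the embedded peaks, 1472 (8.58%) were higher after the inhibitor and 8591 (50.1%) lower, where over all 43094 peaks 5.56% were higher and 60.2% lower. The largest falls on the spike-in scale, among 1698 eligible peaks with at least 20 reads in each inhibitor library, were at Tbx4, a limb T-box factor (1623-fold), Adcy6, an adenylate cyclase (1521-fold), Ackr2 with Cyp8b1, Papln, and Gm13821. The smallest were at Gm51701 (48.9-fold), Zc3h7a (65.8-fold), the intergenic peak on chromosome 12, an intergenic peak at chr9:3015001-3038500 and Gnas (101-fold). Gnas, an imprinted locus for a G protein subunit (chr2:174296501-174303000), went from 12.6 and 12.5 times the library mean to 51.9 and 85.9 times. Gm51701 and the peaks on chromosomes 12 and 9 also held untreated H3K36me3 at 25.8, 16.8 and 12.4 times the library mean. The part of these high levels in their small falls was not tested. The requirement for 20 reads after the inhibitor favours peaks that kept reads.

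H3K36me2 in the embedded peaks showed no detectable change on the spike-in scale. Its mean was 834 and 541 scaled reads per window after DMSO and 938 and 534 after the inhibitor, and the arms overlapped. The change was 0.08 in log2 with pairs from -0.64 to 0.79 (exact permutation p = 1), so its direction was not resolved. That range is a spread of libraries and not a detection limit. Over the 2 same-numbered pairs the change had an SD of 0.135, though the labels do not say that these libraries belong together. Without the second DMSO library it was -0.24 and without the first inhibitor library -0.33. limma on that scale called 0 embedded peaks, against a background of 0% of 43094 peaks. At an unadjusted p under 0.05 it found 1 embedded peak and 1041 of all peaks, 897 of them H3K36me2-free. limma-voom also called 0. The arms did not overlap in 46 embedded peaks on the higher side and 16 on the lower, where the background over all peaks was 14.4% and 0.0928%.

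Relative to the library mean, H3K36me2 was lower in the embedded peaks after the inhibitor. They stood at 2.45 and 2.41 times after DMSO and 2.21 and 2.24 times after the inhibitor, without overlap, a change of -0.13 in log2 (pairs -0.15 to -0.11, exact p = 0.333). A fall was not particular to them: H3K36me2-only sequence went from 1.90 ± 0.006 to 1.68 ± 0.01 times. H3K36me2-free peaks stood at 0.862 ± 0.03 and then at 1.12 ± 0.02 times, and sequence in neither peak set at 0.397 ± 0.004 and then 0.460 ± 0.007. The ratio of embedded to H3K36me2-free peaks went from 2.91 and 2.74 to 1.94 and 2.03, a difference of -0.51 in log2 (pairs -0.58 to -0.43, exact p = 0.333). Untreated H3K36me2 peaks set these 2 classes apart, so their difference in the same mark is a description only. Peak by peak, the median relative change was -0.13 in embedded and 0.41 in H3K36me2-free peaks, and the middle 50% of each class ran from -0.22 to -0.03 and from 0.23 to 0.60.

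**Figure D4:**
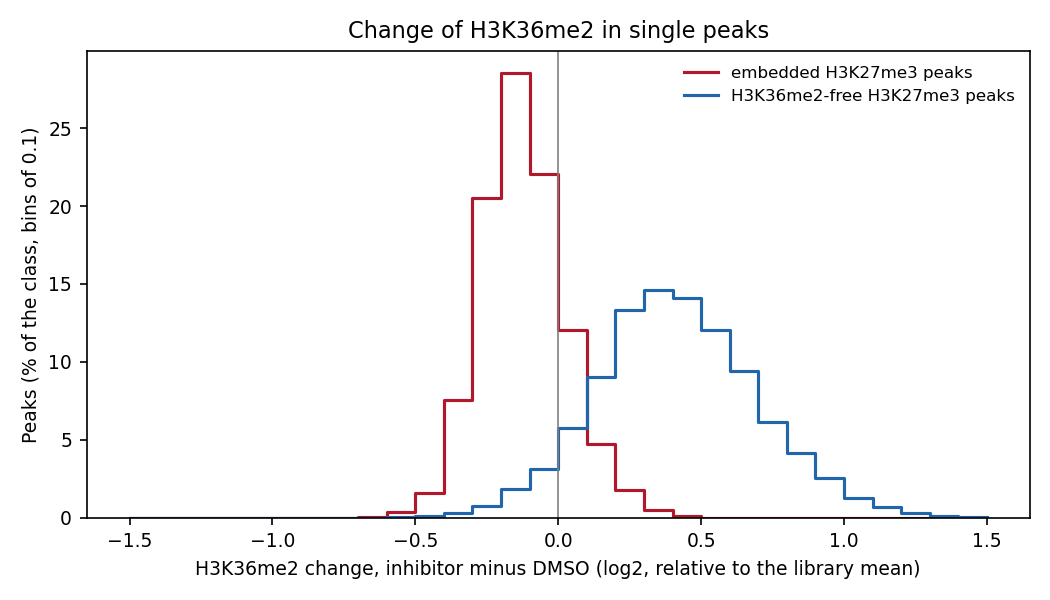
Distribution over single peaks of the change in H3K36me2 (x axis, log2, inhibitor minus DMSO, relative to the library mean; y axis, percent of the class in bins of 0.1) for embedded and H3K36me2-free H3K27me3 peaks. The embedded peaks centre on a median of -0.13 and the H3K36me2-free peaks on 0.41.

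Within the H3K36me2 peaks, embedded peaks stood above the rest of the sequence in both arms. Set against H3K36me2-only sequence, their level was 1.29 and 1.27 times after DMSO and 1.32 and 1.33 times after the inhibitor, a difference of 0.05 in log2 (pairs 0.04 to 0.06, exact p = 0.333). With medians over peaks that difference was 0.006. Against their own flanks it was 0.06 (pairs 0.05 to 0.07, exact p = 0.333), from 1.17 ± 0.003 to 1.22 ± 0.01 times. The relative change of H3K36me2 was -0.19 in the 5717 peaks highest in untreated H3K36me3 and -0.03 in the 5716 lowest, a difference of -0.16 (pairs -0.28 to -0.04). These sets also differed in H3K36me2 after DMSO, at 2.84 and 1.92 times the library mean. Ranked by untreated H3K36me2, which chose the peaks, the difference was -0.16 too (pairs -0.23 to -0.09). The parts of the 2 marks cannot be told apart here.

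limma on reads per 1000000 window reads called 275 embedded peaks, 13 higher and 262 lower, of 17149 tested. The background was 12% of all 43094 H3K27me3 peaks, with 11.3% higher and 0.736% lower, and H3K36me2-free peaks gave 4454 higher and 9 lower. By arms that do not overlap, 1056 embedded peaks (6.16%) were higher and 8842 (51.6%) lower, against 39.8% and 25.1% of all peaks. The call at the adjusted threshold was lost in every fit that left out 1 library, where 0 embedded peaks and 0 of all 43094 peaks passed. With a pseudocount of 1 in place of 0.1 both counts were also 0, and with limma-voom 1743 (10.2% of embedded peaks, against 21.8% of all peaks in the same fit).

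The peaks with the largest relative differences of H3K36me2 on the lower side were 2 intergenic ones and 3 in genes. The intergenic peak at chr9:3015001-3038500, whose untreated H3K36me3 was high, did not pass (limma adjusted p = 0.10), and that at chr17:27254501-27262500 went from 3.22 and 2.74 to 1.43 and 1.76 times the library mean (limma adjusted p = 0.028). At Slc5a5, the sodium iodide symporter (chr8:70883001-70885500), the level was 4.07 and 4.14 times the library mean after DMSO and 2.51 and 2.46 times after the inhibitor, a log2 change of -0.67 ± 0.08 (SE; limma adjusted p = 0.028). Atcay, the gene of the neuronal protein caytaxin, went from 2.69 and 2.70 to 1.69 and 1.63 times (limma adjusted p = 0.028). E2f7, an atypical E2F repressor, went from 2.33 and 2.64 to 1.59 and 1.55 times (limma adjusted p = 0.028). Dnmt1 and Sall2 were named from the gene lists by H3K27me3 after DMSO, not by the size of this difference. The embedded start of Dnmt1, the maintenance DNA methyltransferase, went from 3.78 and 3.93 to 3.02 and 2.75 times. The Sall2 peak at chr14:52312001-52317500 went from 2.27 and 2.35 to 1.79 and 1.67 times (limma adjusted p = 0.042 at both peaks). On the spike-in scale limma called 0 embedded peaks, these included.

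On the higher side, 13 embedded peaks passed, set against the 11.3% background. The largest difference, at an intergenic peak at chr11:35109001-35111000, was from 1.2 and 0.817 to 1.98 and 1.83 times the library mean (limma adjusted p = 0.033). A peak in Auts2, a gene linked to neurodevelopment and a variant PRC1 component, went from 1.04 and 1.49 to 1.83 and 2.21 times, without passing (limma adjusted p = 0.063). That peak held 0 H3K27me3 reads in both inhibitor libraries against 44 and 64 after DMSO, and no fold is given for so few reads. At Wnt1 and Dll4, where relative H3K27me3 was higher after the inhibitor, H3K36me2 did not pass (limma adjusted p = 0.10 and 0.18), with 2.41 and 2.44 against 1.97 and 2.08 times at Wnt1 and 2.20 and 2.10 against 1.89 and 1.87 at Dll4.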

How the data were processed

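Reads were aligned and peaks called by the authors. The submitters' processing notes name Trim Galore 0.4.2, Bowtie2 2.2.6.2, SICER and the mm10 and dm3 builds, with no role or order. The authors deposited signal tracks as log2 values, which were found to equal log2 of 1 plus a whole read count times 1 factor per library (tolerance 0.02), over 1 kb windows every 500 bp. The factor was per 1000000 reads in untreated libraries and was taken as the spike-in factor in quantitative ones, whose derivation is not given in the sources used here. Each deposited peak list carries the authors' score, whose scale is not stated.

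Reads were recovered from the tracks and averaged over non-overlapping windows with at least 500 bp in a peak. Relative levels were divided by the library's autosomal mean. The log2 tracks hold no raw count table, so each peak was tested with limma 3.58.1 (R 4.3.3) over all H3K27me3 peaks on chromosomes 1 to 19 and X, with Benjamini-Hochberg adjusted p under 0.05, a pseudocount of 1 on the spike-in scale and 0.1 per 1000000 reads on the library-total scale. Peaks with 0 reads in a library were left out. Class means were compared by exact two-sided permutation of 2 against 2 libraries, which cannot go below 0.333. H3K36me2 data were simulated for 43094 peaks with an assumed spread between replicates and fitted on the library-total scale. There limma called 100 of 100 peaks changed 4-fold, 18 of 100 changed 1.5-fold and 14 unchanged ones. The spread was not estimated from these libraries, so those counts give no detection limit for the real data on either scale. In simulated H3K27me3 data at the depth of the real libraries, also fitted on the library-total scale, limma called 0 of 100 at either size. That fit does not bear on the spike-in calls. Simulated on the spike-in scale with the same fall at every peak, limma called 39649 of 39649 tested peaks lower. A call on the spike-in scale therefore does not set a peak apart from such a common fall.

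Named peaks were up to 3 per gene list by H3K27me3 after DMSO, the 4 highest and 4 lowest in untreated H3K36me3, the 5 largest and 5 smallest falls of H3K27me3 among peaks with 20 or more reads in each inhibitor library, and the 5 largest differences of H3K36me2 in each direction. Repeat-like peaks and chromosome 18 were left out of naming. The embedded peaks and the gene lists were chosen with earlier results of these data known. Python 3.11.15, numpy 2.4.6, pandas 2.3.3, scipy 1.17.1 and matplotlib 3.10.9 were used. Alternatives were other rules for cover and length, medians, pseudocounts, read filters, library totals, limma-voom, a replicate block and leaving out each library.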

Additional observations from a re-analysis of the deposited data

How the results depend on the processing

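Of 220 alternative values for 26 results, 188 kept the result and 4 reversed direction. A further 14 moved beyond the SD or interval of the reported value. Counts of called peaks were markedly lower in 10 and markedly higher in 4. The exact tests of class means cannot pass a threshold with 2 against 2 libraries, so for these only direction and size can be compared. By medians over peaks, the H3K27me3 difference between embedded and H3K36me2-free peaks went from 0.18 to 0.48, and the H3K36me2 difference from H3K36me2-only sequence from 0.05 to 0.006. The spike-in change of H3K36me2 reversed to -0.13 with library totals, and ranged from -0.33 to 0.48 when 1 library was left out. The log2 ratio of untreated H3K36me3, 1.87 as reported, was 1.92 for fully covered peaks, 1.77 at 75% cover, 1.67 by medians and 1.84 without the top 0.1% of windows. The share of embedded peaks without a gene was 25.3% from 5 kb on and 44.8% with protein-coding genes. The share in H3K27me2 peaks was 87.3% for fully covered peaks, 93.1% at 1 bp, 68.5% at 90% of the bases and 75.3% with the upper 50% of the list by score; for H3K27me1 peaks it was 18.9%, 43.1%, 8.85% and 12.4%. limma called 0 embedded peaks for H3K27me3 with library totals (4412 of 15921 at an unadjusted p under 0.05, with 0 called and 12635 of 37653 over all peaks), 7932 with median centring (3179 higher, 4753 lower; 49.8% of those tested, against 51.9% of all peaks) and 1745 with 20 or more reads, where fewer peaks were tested and 100% of all peaks were called too. For H3K36me2 on the spike-in scale it called 123 with median centring (1 higher, 122 lower; 0.717%, against 6.43% of all peaks). On the library-total scale it called 0 with a pseudocount of 1 (4826 of 17149 at an unadjusted p under 0.05, with 0 called and 15327 of 43094 over all peaks), 130 with 0.01 (0.758%, against 11.3% of all peaks), 0 on the spike-in scale, 1743 with limma-voom (10.2%, against 21.8%), and 0 to 0 when 1 library was left out. The CpG split of H3K27me3 was -0.13 by medians. The cause was not tested, except where fewer peaks or libraries entered the fit.

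With the replicate number as a block, limma called 223 embedded peaks for H3K36me2 on the spike-in scale (216 higher, 7 lower; 1.30%, against 29.9% of all peaks and 72.0% of H3K36me2-free peaks) and 1583 on the library-total scale (74 higher, 1509 lower; 9.23%, against 25.3% of all peaks). The labels do not say that same-numbered libraries belong together. Over the 17149 embedded peaks, the difference between replicates 1 and 2 after DMSO was correlated with that after the inhibitor. The correlation was 0.06 for H3K27me3 and 0.43 for H3K36me2. For the spike-in class means, the change had an SD over same-numbered pairs of 0.060 for H3K27me3 and 0.135 for H3K36me2. The SDs within arms were 0.31 and 0.37 for H3K27me3 and 0.44 and 0.58 for H3K36me2. With 2 pairs it cannot be told whether the numbers mark a shared batch. Depth limits single peaks most for H3K27me3 after the inhibitor, with a median of 5 and 9 reads.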
